A study of Homo sapiens with 12 samples.

Results

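HEPACAM, TMEM47, CD7, NAV2, TUB, SLC37A2, ELF5, DPYSL4 and ZNF385B are 9 genes of unrelated function whose RNA level was far apart between sorafenib-resistant and parental hepatocellular carcinoma cells in Huh7, in HepG2 or in both. They were chosen for that difference, and their rows were taken by symbol, 1 row each, from the 27249 genes with an Ensembl identifier that every sample lists. Because the resistant against parental values chose them, those values are given below as a description, without a test. Huh7 and HepG2 are human liver cancer cell lines, and sorafenib is a multikinase inhibitor used against this cancer. RNA was sequenced from 4 groups of 3 samples: resistant Huh7, parental Huh7, resistant HepG2 and parental HepG2 cells, all with wild-type genotype according to the labels. Parental cells had no treatment. Resistant cells were survivors of sorafenib given for 24 h, first at 10 μmol and then at rising concentrations over 8 months. The labels do not say whether the 3 samples of a group came from separate selections or cultures, so the spread between them may be technical, and each resistant line may be a single selected population.

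The values have the pattern of reads scaled by exon length and sequencing depth and are called FPKM here. Between 12290129 and 19285958 reads lie behind a sample, with the fewest in parental HepG2 cells. Hepatocyte markers were high in all 12 samples, with a summed level of 6464 to 10600 FPKM over 14 genes, as the label of liver cancer cells implies. That sum was lower in resistant than in parental cells of both lines, at 7192 to 7493 against 8761 to 10600 FPKM in Huh7 and at 6464 to 7354 against 7470 to 8327 FPKM in HepG2. The lower sum rested on AFP, the fetal serum protein, which was at 2291 against 5332 FPKM in Huh7 and 366 against 1394 FPKM in HepG2: over the other 13 markers, the sum was higher in resistant Huh7 cells (4777 to 5150 against 4114 to 4293 FPKM) and overlapped in HepG2 (6135 to 7008 against 6263 to 6914 FPKM). Of the 14 markers, 2 were called higher and 1 lower in Huh7 (median log2 fold change 0.18) and 1 higher and 4 lower in HepG2 (median -0.04), where called means a log2 fold change over 1 in size with an adjusted p-value below 0.05 by limma. Among all genes tested, 22.6% were called in Huh7 and 6.27% in HepG2. The part of these markers in the results below was not tested.

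The 9 genes fall into different branches of cell biology. HEPACAM is an adhesion molecule of the immunoglobulin family that was first described as lost in liver cancer and that works in glia as the partner of MLC1 and CLCN2, CD7 is a receptor of T and NK cells, and TMEM47 is a small membrane protein of cell junctions from the PMP22, EMP and claudin superfamily. NAV2 is a retinoic acid-induced regulator of the cytoskeleton, DPYSL4 belongs to the collapsin response mediator proteins of growing neurites, and TUB, the founder of the tubby family, binds phosphoinositides and carries receptors into cilia. SLC37A2 exchanges glucose-6-phosphate for phosphate across the membrane of the endoplasmic reticulum, ELF5 is an ETS transcription factor of mammary and placental epithelium, and ZNF385B is a zinc finger protein. None of them is a defining gene of the hepatocyte.

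In Huh7, 7 of the 9 genes were higher in every resistant than in every parental sample, 1 was lower in every one and in 1 the samples overlapped, and the same counts were found in HepG2. TUB, SLC37A2, ELF5, DPYSL4, ZNF385B and CD7 were the 6 genes above the parental samples in both lines. Groups did not overlap for 74.5% of all tested genes in Huh7 (35.2% above and 39.2% below) and for 40.4% in HepG2 (24.9% above and 15.5% below), and resistant samples were above parental samples in both lines for 8.21% of the genes tested in both. Only genes that reached 1 FPKM in 3 or more of the 6 libraries of a line were tested with limma. A differentially expressed gene had to differ by more than 1 on the log2 scale at a Benjamini-Hochberg adjusted p-value below 0.05. By these criteria, 8 of the 9 genes passed the filter in Huh7, of which 3 were called higher and 1 lower, against 22.6% of all genes called (8.59% higher and 14% lower). In HepG2, 7 passed, of which 6 were called higher and 1 lower, against 6.27% of all genes (3.29% higher and 2.98% lower). Among all genes tested in both lines, 0.281% were called higher in both. TUB, SLC37A2, ELF5 and DPYSL4 in both lines, and ZNF385B in Huh7, passed the filter only through the resistant samples. TMEM47 in Huh7 and NAV2 in HepG2 passed it only through the parental samples. These counts follow from how the genes were chosen and, for the genes just named, from the filter, so they are no test.

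**Figure D1:**
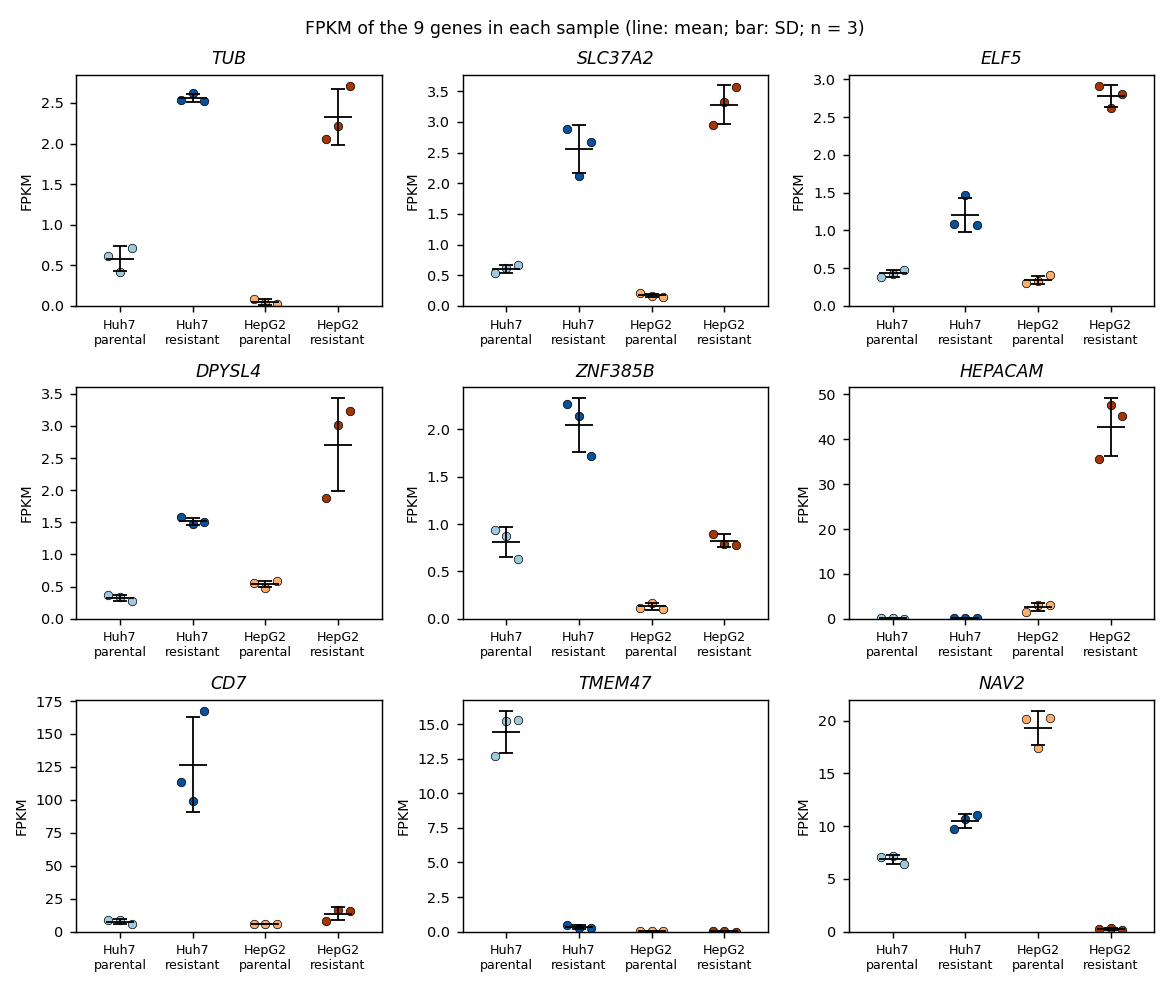
FPKM of each of the 9 genes (vertical axes, linear, starting at 0) in the 3 samples of each group (points), with the mean (line) and SD (bar). TUB, SLC37A2, ELF5, DPYSL4 and ZNF385B are higher in resistant cells of both lines, HEPACAM is high in resistant HepG2 cells alone, CD7 reaches 99.4 to 168 FPKM in resistant Huh7 cells, TMEM47 is seen in parental Huh7 cells and NAV2 is nearly absent from resistant HepG2 cells.

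TUB was low or nearly silent in parental cells and reached the same range in both resistant lines. In Huh7 it measured 2.53, 2.62 and 2.53 FPKM in the resistant samples and 0.613, 0.415 and 0.718 FPKM in the parental samples. In HepG2 it measured 2.06, 2.21 and 2.71 FPKM in the resistant samples and 0.0906, 0.0363 and 0.0189 FPKM, which are 8, 3 and 2 reads, in the parental samples. The resistant samples of the 2 lines overlapped with each other, whereas all parental HepG2 samples lay below all parental Huh7 samples. The mean was 4.40 times higher in resistant Huh7 cells (log2 fold change 1.17, SE 0.11, on the log2(FPKM + 1) scale, which understates changes of low genes) and 47.9 times higher in resistant HepG2 cells (log2 fold change 1.66, SE 0.15). From 820 reads against 13, the HepG2 depth-scaled ratio of reads was 49.5, with an exact 95% interval of 28.8 to 93.4 that covers counting error only. In bulk RNA, a higher share of cells with a transcript and more transcript per cell cannot be told apart. The promoter of TUB is dense in CG dinucleotides, at 32 in the 250 bases before its RefSeq start, more than in 90.5% of 35114 human promoters, whose median is 11. It is shown because TUB went from a few reads in parental HepG2 cells to 234 to 314 reads in resistant ones, with CG in capitals, up to the first annotated exon.
TUB promoter, RefSeq GRCh38.p14, chr11:8018995-8019243, plus strand: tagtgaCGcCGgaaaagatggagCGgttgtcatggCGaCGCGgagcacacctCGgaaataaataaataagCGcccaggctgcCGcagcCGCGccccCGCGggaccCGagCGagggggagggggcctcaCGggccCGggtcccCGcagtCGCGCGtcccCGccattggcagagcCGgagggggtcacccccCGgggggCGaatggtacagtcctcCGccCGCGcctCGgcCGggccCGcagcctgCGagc

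DPYSL4 was higher in resistant cells of both lines by similar ratios. Its 3 resistant Huh7 samples held 1.58, 1.47 and 1.51 FPKM and the parental ones 0.368, 0.336 and 0.273 FPKM, a ratio of means of 4.66. The resistant HepG2 samples held 1.88, 3.01 and 3.24 FPKM and the parental ones 0.552, 0.487 and 0.581 FPKM, a ratio of 5.02. All 4 groups were apart from each other, with resistant HepG2 highest and parental Huh7 lowest, and the first resistant HepG2 sample was the lowest of its group, as it also was for TUB, SLC37A2, CD7 and HEPACAM. The log2 fold changes were 0.93 (SE 0.10) in Huh7, under the threshold of 1, and 1.25 (SE 0.18) in HepG2. DPYSL4 has a CG-dense promoter as well, with 31 CG in 250 bases, more than in 89.1% of promoters. It is shown as the counterpart of TUB, up to its first annotated exon, with CG in capitals.
DPYSL4 promoter, RefSeq GRCh38.p14, chr10:132186698-132186899, plus strand: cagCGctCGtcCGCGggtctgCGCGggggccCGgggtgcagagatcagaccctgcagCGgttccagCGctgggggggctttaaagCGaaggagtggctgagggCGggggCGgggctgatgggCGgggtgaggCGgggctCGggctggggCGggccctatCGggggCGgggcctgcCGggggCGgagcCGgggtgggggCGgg

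ELF5 and ZNF385B were also higher in resistant cells of both lines, at levels of about 1 to 3 FPKM. ELF5 measured 1.08, 1.47 and 1.07 FPKM in resistant against 0.384, 0.423 and 0.482 FPKM in parental Huh7 cells, and 2.92, 2.62 and 2.81 against 0.305, 0.326 and 0.410 FPKM in HepG2 cells. The parental samples of the 2 lines overlapped, and the resistant HepG2 samples were all above the resistant Huh7 samples. The ratios of means were 2.80 in Huh7 (log2 fold change 0.62, SE 0.11, not called) and 8.01 in HepG2 (1.49, SE 0.14). ZNF385B measured 2.27, 2.14 and 1.72 FPKM in resistant against 0.934, 0.872 and 0.629 FPKM in parental Huh7 cells, and 0.901, 0.793 and 0.777 against 0.115, 0.169 and 0.108 FPKM in HepG2 cells. It was higher in Huh7 than in HepG2 under the same condition, resistant or parental, and resistant HepG2 samples overlapped with parental Huh7 samples. Its ratios were 2.52 in Huh7 (log2 fold change 0.75, SE 0.12, not called) and 6.32 in HepG2, where it stayed under 1 FPKM and was not tested.

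SLC37A2, the glucose-6-phosphate exchanger, was higher in resistant cells of both lines. The study placed it in a gene list chosen on these samples and on a patient-derived xenograft model of sorafenib resistance. As it was chosen by the resistant against parental values of these samples too, its direction here is no independent evidence. The resistant Huh7 samples held 2.89, 2.12 and 2.67 FPKM and the parental ones 0.534, 0.615 and 0.661 FPKM. The resistant HepG2 samples held 2.95, 3.32 and 3.58 FPKM and the parental ones 0.203, 0.166 and 0.150 FPKM. The order was resistant HepG2, resistant Huh7, parental Huh7 and parental HepG2, with every neighbouring pair apart. The ratios of means were 4.24 in Huh7 (log2 fold change 1.14, SE 0.12) and 19.0 in HepG2 (1.87, SE 0.14). In Huh7 the log2 fold changes of TUB and SLC37A2 fell to 0.74 and 0.65 once the trend with GC content was removed from each library, under the threshold, and that of DPYSL4 to 0.43, whereas ZNF385B moved to 1.03.

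**Figure D2:**
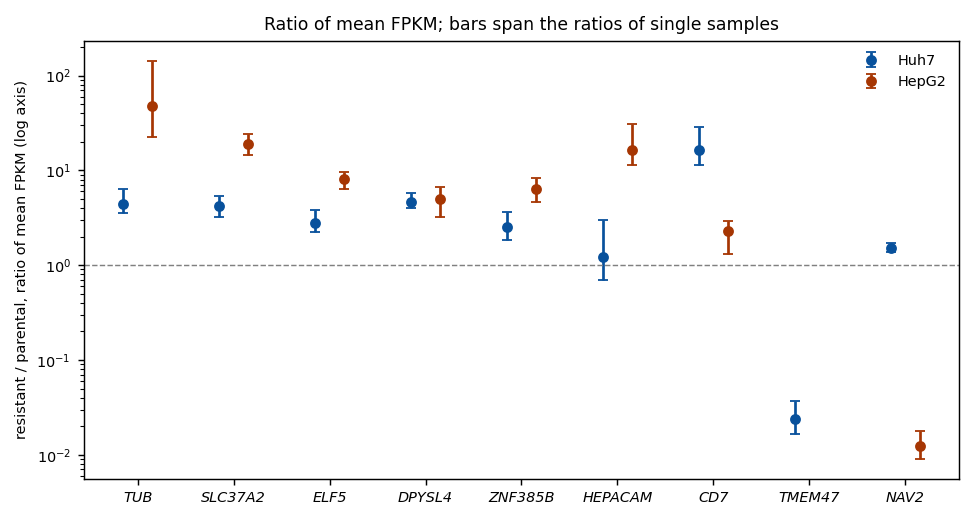
Ratio of mean FPKM in resistant to parental cells (vertical axis, log scale) for each gene in Huh7 (blue) and HepG2 (brown), with bars from the lowest to the highest ratio between single samples, and the dashed line at 1. TUB reaches 47.9 in HepG2, TMEM47 lies at 0.0237 in Huh7 and NAV2 at 0.0124 in HepG2, and the bar of HEPACAM in Huh7 crosses 1. TMEM47 in HepG2 has no ratio because no sample exceeded 3 reads.

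HEPACAM was the gene with the third highest log2 fold change of 11762 tested in HepG2, and it was nearly silent in Huh7. The resistant HepG2 samples held 35.5, 47.6 and 45.1 FPKM, from 2303 to 3329 reads, and the parental ones 1.53, 3.12 and 3.09 FPKM. In Huh7, the resistant samples held 7, 6 and 7 reads (0.0964, 0.0813 and 0.0962 FPKM) and the parental ones 8, 5 and 2 reads (0.116, 0.0775 and 0.0323 FPKM). The HepG2 groups were far apart, with a ratio of means of 16.6 (single samples 11.4 to 31.1) and a log2 fold change of 3.63 (SE 0.22), while the Huh7 groups overlapped, with a depth-scaled ratio of reads of 1.19 and an exact 95% interval of 0.577 to 2.49 for counting error only. The level in resistant HepG2 cells put HEPACAM at rank 802 of 27249 genes, against rank 8677 in parental HepG2 cells. Neither of its glial partners passed the test with it. MLC1 stayed at 0.00875 ± 0.00759 FPKM (SD, n = 3) in resistant and 0.0294 ± 0.0127 FPKM in parental HepG2 cells and was not tested, and CLCN2, a chloride channel, was at 3.07 ± 0.11 and 2.45 ± 0.41 FPKM and did not pass the test (log2 fold change 0.25, adjusted p = 0.253).

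HEPACAM and SLC37A2 lie on chromosome 11 on opposite strands, with starts 126.7 kb apart and CCDC15 as the only listed Ensembl gene that starts between them. HEPACAM spans 124919193 to 124936412 on the minus strand and SLC37A2 125063067 to 125090312 on the plus strand (GRCh38). CCDC15, a coiled-coil protein gene that starts 17.7 kb from HEPACAM and points towards SLC37A2, measured 9.01, 5.40 and 6.86 FPKM in resistant against 2.19, 1.30 and 1.42 FPKM in parental HepG2 cells. This rise passed the test in limma (log2 fold change 1.61, SE 0.21, adjusted p = 0.00195) and kept its call under every alternative tried. In Huh7 CCDC15 went the other way, at 1.30, 1.39 and 1.49 FPKM in resistant against 2.11, 1.87 and 2.72 FPKM in parental cells (log2 fold change -0.43, SE 0.13, adjusted p = 0.0147, not called), and with the GC trend removed its log2 fold change was 0.33. Its promoter stands between the starts of the 2 genes and is shown for that place, with 25 CG in the 250 bases before the RefSeq start, of which the stretch up to the first exon is printed.
CCDC15 promoter, RefSeq GRCh38.p14, chr11:124953952-124954120, plus strand: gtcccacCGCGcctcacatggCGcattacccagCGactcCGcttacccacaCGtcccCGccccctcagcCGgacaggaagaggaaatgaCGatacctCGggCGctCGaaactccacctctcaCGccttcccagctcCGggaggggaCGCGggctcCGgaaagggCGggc

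The rows around these genes were then listed, a choice made after the values were seen. From 200 kb beyond the HEPACAM start to 200 kb beyond the SLC37A2 start, 18 rows had at least 0.5 FPKM in a sample: 8 Ensembl genes and 10 rows with a NONCODE identifier. ROBO3 and ROBO4, which encode roundabout guidance receptors, lie next to HEPACAM on its far side from CCDC15. In HepG2, ROBO4, best known from endothelium, measured 0.714, 1.24 and 1.06 FPKM in resistant cells and 0.173, 0.0463 and 0.0362 FPKM in parental cells. ROBO3 measured 0.664, 1.04 and 0.637 FPKM in resistant against 0.0434, 0.104 and 0.0633 FPKM in parental HepG2 cells. Neither reached the filter of the test, and in both the groups were far apart, with ratios of means of 11.8 and 11.1.

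In HepG2 the 9 successive rows from ROBO3 to SLC37A2 were all above the parental samples without overlap. They comprise ROBO3, ROBO4, HEPACAM, CCDC15, 4 NONCODE rows on the plus strand and SLC37A2, and the ratio of means was from 4.32 to 19.0, apart from NONHSAG063175.1, inside CCDC15, which was listed at 0 in the 3 parental samples and at 0.841, 0.389 and 1.45 FPKM in the resistant ones. The other 3 lie between the end of CCDC15 and the start of SLC37A2, and NONHSAG064393.1, which starts 2.79 kb before SLC37A2, measured 3.57, 2.60 and 1.93 FPKM in resistant against 0.110, 0.234 and 0.550 FPKM in parental HepG2 cells. Outside this stretch the ratios were smaller. TMEM218 (2.27), NONHSAG106637.1 (2.12) and NONHSAG009938.3 (1.63) were also above the parental HepG2 samples without overlap. MSANTD2, the nearest tested gene beyond ROBO3, was at 2.33 ± 0.45 FPKM in resistant and 1.90 ± 0.21 FPKM in parental HepG2 cells (SD, n = 3; log2 fold change 0.19, adjusted p = 0.402), and VSIG2 was at 4.36 against 3.85 FPKM with overlapping samples. Over the 18 rows, 12 were above and 0 below in HepG2, where 19% of all rows at this level were above and 8.63% below without overlap. This count is a description, since HEPACAM and SLC37A2 are among the 12 and were chosen for this difference, and ROBO4, NONHSAG063175.1 and TMEM218 reached 0.5 FPKM in resistant HepG2 cells alone.

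Huh7 showed a different picture in the same stretch. ROBO3 was higher in resistant Huh7 cells, at 0.503, 0.487 and 0.359 FPKM against 0.0714, 0.0254 and 0.0705 FPKM in parental cells, as was SLC37A2. ROBO4 had at most 2 reads in any Huh7 sample. CCDC15 and the 3 NONCODE rows between CCDC15 and SLC37A2 were below the parental samples without overlap, the last of them at 0, 0.0747 and 0.0758 FPKM against 0.562, 0.513 and 0.0892 FPKM. In all, 3 of the 18 rows were above and 8 below in Huh7, where 17.4% of all rows at this level were above and 42% below. The library kit does not mark the strand, so reads of a gene and of a row that overlaps it cannot be told apart.

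**Figure D3:**
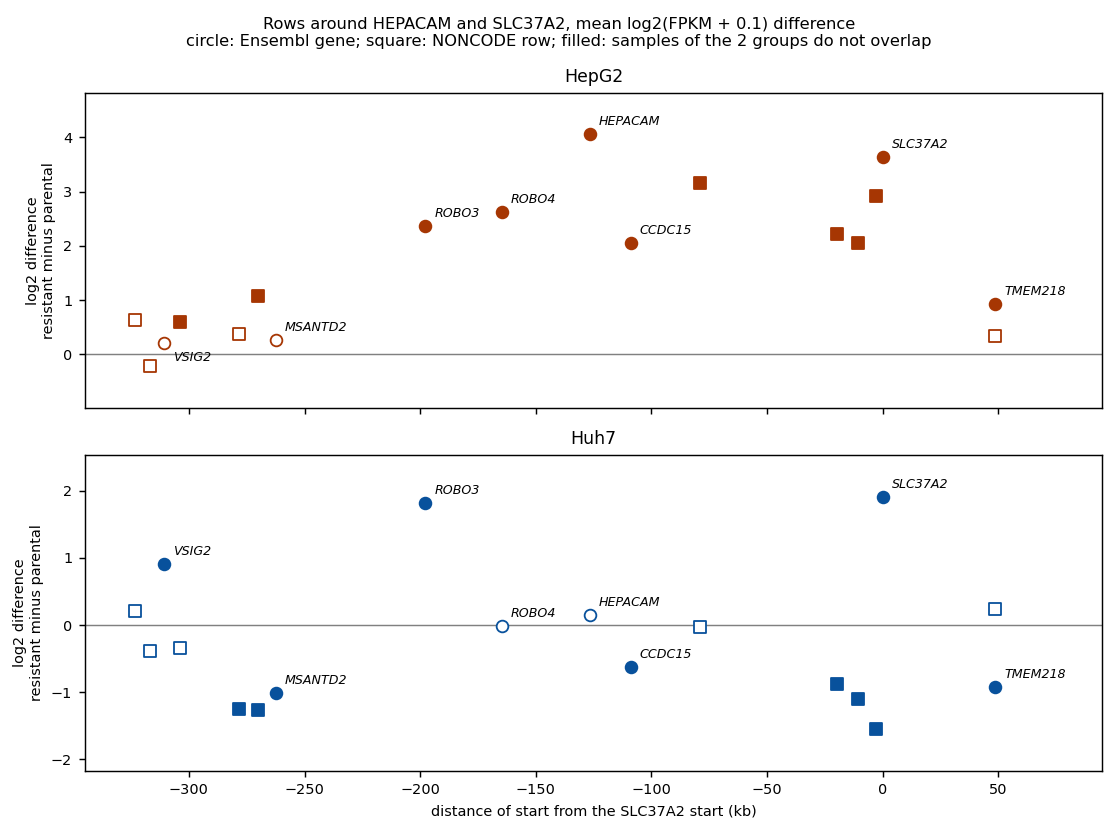
Mean difference of log2(FPKM + 0.1) between resistant and parental cells (vertical axis) of the 18 rows around HEPACAM and SLC37A2 against the distance of their start from the SLC37A2 start in kb (horizontal axis), in HepG2 (upper panel) and Huh7 (lower panel). Circles are Ensembl genes, squares are NONCODE rows, and filled symbols are rows whose resistant and parental samples do not overlap; in HepG2 the rows from ROBO3 to SLC37A2 all lie above those on either side.

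CD7 had the second highest log2 fold change of 12554 genes tested in Huh7. The resistant Huh7 samples held 114, 99.4 and 168 FPKM, from 5241 to 8710 reads, and the parental ones 8.62, 8.73 and 5.79 FPKM. In HepG2, resistant samples held 7.79, 16.6 and 15.98 FPKM and parental ones 5.99, 5.65 and 5.97 FPKM. The 2 parental lines overlapped, and the resistant HepG2 samples overlapped with parental Huh7 cells, so that resistant Huh7 cells alone stood apart. The ratio of means was 16.4 in Huh7 (log2 fold change 3.86, SE 0.21) and 2.29 in HepG2 (1.01, SE 0.26). The HepG2 call was not stable. The log2 fold change was under the threshold without the second (0.83) or the third resistant sample (0.86), without the second parental sample (0.98), with the other scalings (0.91 and 0.88) and with the GC trend removed (0.61). Without the first or the third parental sample (1.02 in both) or a filter on low values (1.01), it stayed over the threshold and the adjusted p-value was missed. Among the 6 fits that left out 1 sample, only that without the first resistant sample (1.33) kept the call.

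Other lymphocyte genes did not move with CD7. Of 16 lymphocyte surface and signalling genes, 5 were tested in Huh7 and 6 in HepG2, and 0 were called in either line by limma, with medians of -0.05 and -0.20 against -0.04 and 0.12 over all genes. At an unadjusted p-value under 0.05, 1 differed in Huh7 and 2 in HepG2, and limma-voom on reads calculated back called 0 in either line. CD2, a T cell adhesion receptor, was at 1.44 ± 0.18 FPKM in resistant and 2.15 ± 0.98 FPKM in parental Huh7 cells (SD, n = 3; log2 fold change -0.33, adjusted p = 0.165). CD3E, which defines T cells, was at 0.172 ± 0.029 and 0.243 ± 0.044 FPKM in the same groups. The summed level of 9 lymphocyte markers was 6.30 to 6.71 FPKM in resistant and 4.59 to 8.48 FPKM in parental Huh7 cells, so these ranges overlapped while CD7 differed. SECTM1, the gene of a CD7 ligand, stayed under 1 FPKM, at 0.584 ± 0.147 against 0.205 ± 0.042 FPKM in Huh7 and 0.270 ± 0.031 against 0.133 ± 0.058 FPKM in HepG2, and was not tested. The annotated exons of CD7 cover its whole span of 2735 bases (chr17:82314868-82317602, minus strand), so reads from unspliced RNA count in full. NONHSAG073453.1, a longer row on the opposite strand that covers CD7, measured 2.04 to 3.72 FPKM in resistant and 0.656 to 0.788 FPKM in parental Huh7 cells.

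CD7 lies in a gene-dense stretch of chromosome 17 in which several neighbours were higher in resistant HepG2 cells. Within 500 kb, 28 genes were tested in each line, where 6.27% of all genes were called in HepG2 and 22.6% in Huh7. In HepG2, 6 were called higher and 0 lower: the fatty acid synthase gene FASN, the mRNA export factor gene ALYREF, the fructosamine kinase gene FN3K, the phosphatidylethanolamine synthesis gene PCYT2, LRRC45 and C17orf62. FN3K was at 20.2 ± 6.0 FPKM against 6.98 ± 0.68 FPKM (SD, n = 3; log2 fold change 1.37, adjusted p = 0.00468), and ALYREF at 19.1 ± 2.7 against 8.09 ± 1.74 FPKM (1.16, adjusted p = 0.00472). In Huh7, where CD7 itself was so high, 2 were called higher, ALYREF (log2 fold change 1.20, adjusted p = 0.000123) and the transcription factor gene MAFG (1.07, adjusted p = 0.000151). ALYREF is in the same gene list of the study as SLC37A2, chosen in part on these samples. The direction of ALYREF in either line is therefore no independent evidence. Once the GC trend was removed, FASN, LRRC45 and C17orf62 in HepG2 and ALYREF and MAFG in Huh7 were no longer called. The genes tested nearest to CD7 were not called: CSNK1D, 43.9 kb away, had log2 fold changes of 0.17 in Huh7 and -0.13 in HepG2 (adjusted p = 0.2002 and 0.567), TEX19, 41.6 kb away, one of -0.72 in HepG2 (adjusted p = 0.0369) and UTS2R one of -0.17 in Huh7 (adjusted p = 0.568).

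TMEM47 was nearly absent from resistant Huh7 cells. The parental Huh7 samples held 12.7, 15.2 and 15.3 FPKM, from 921 to 1041 reads, and the resistant ones 0.468, 0.256 and 0.298 FPKM, from 20 to 36 reads. The mean was 42.3 times lower in resistant cells (single samples 27.1 to 59.9), with a log2 fold change of -3.52 (SE 0.12), the second lowest of 12554 genes. With the GC trend removed the log2 fold change was -2.70. HepG2 cells lacked TMEM47 under either condition, with 0 to 3 reads in each of the 6 samples, so no fold is given. The gene lies at chrX:34627064-34657288 on the minus strand, and no other gene within 500 kb was tested in either line. NONHSAG103345.1, a row on the opposite strand inside TMEM47, was listed at 0 in resistant Huh7 cells and at 0.673 to 0.982 FPKM in parental ones. The promoter of TMEM47 is the most CG-dense among the 7 genes with a RefSeq entry, with 34 CG in 250 bases, more than in 93.2% of all promoters, and is shown beside that of TUB because it was lower where TUB was higher.
TMEM47 promoter, RefSeq GRCh38.p14, chrX:34657289-34657535, minus strand: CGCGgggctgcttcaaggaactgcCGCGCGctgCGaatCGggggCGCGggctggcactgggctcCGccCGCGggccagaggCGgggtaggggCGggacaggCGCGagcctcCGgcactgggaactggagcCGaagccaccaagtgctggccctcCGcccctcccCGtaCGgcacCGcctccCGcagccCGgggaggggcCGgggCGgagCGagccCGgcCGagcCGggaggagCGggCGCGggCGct

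NAV2 was nearly absent from resistant HepG2 cells and present in all other groups. The parental HepG2 samples held 20.1, 17.4 and 20.3 FPKM and the resistant ones 0.223, 0.309 and 0.184 FPKM. In Huh7, resistant samples held 9.74, 10.7 and 11.04 FPKM and parental ones 7.10, 7.14 and 6.395 FPKM. All 4 groups were apart from each other, and the order of resistant and parental cells was opposite in the 2 lines. The mean was 80.8 times lower in resistant HepG2 cells (single samples 56.4 to 110), with a log2 fold change of -4.03 (SE 0.14), the third lowest of 11762 genes. In Huh7 the ratio was 1.53 (log2 fold change 0.55, SE 0.10, not called), and 0.16 on the log2 scale was left once the GC trend was removed. The reads calculated for NAV2 do not fall on whole numbers with its annotated exon length, so its read numbers are approximate.

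The low level of NAV2 in resistant HepG2 cells was also seen in some NONCODE rows inside its span of 771 kb (chr11:19350724-20121598, plus strand). The other rows there overlapped between the HepG2 groups, at or near 0 in both. As the kit does not mark the strand, reads of NAV2 and of these rows cannot be told apart. NONHSAG062694.1, on the same strand near the 3′ end of NAV2, measured 6.90 to 10.0 FPKM in parental and 0.0842 to 0.159 FPKM in resistant HepG2 cells, with overlapping ranges of 2.26 to 2.88 and 1.83 to 2.52 FPKM in parental and resistant Huh7 cells. NONHSAG063340.1, on the opposite strand, was at 1.27 to 4.24 FPKM in parental and listed at 0 in all 3 resistant HepG2 samples. The nearest tested gene before NAV2 was called in the opposite direction: E2F8, a transcription factor gene of the cell cycle 109 kb away, was at 11.5 ± 0.8 FPKM in resistant and 4.96 ± 1.24 FPKM in parental HepG2 cells (SD, n = 3; log2 fold change 1.09, adjusted p = 0.00476). In Huh7 E2F8 was at 17.1 ± 1.4 against 19.1 ± 0.9 FPKM (log2 fold change -0.15, adjusted p = 0.216). The RefSeq start of NAV2 lies 5488 bases before the start that the files use, and its promoter there has 16 CG in 250 bases, more than in 59.0% of promoters.
NAV2 promoter, RefSeq GRCh38.p14, chr11:19344986-19345235, plus strand: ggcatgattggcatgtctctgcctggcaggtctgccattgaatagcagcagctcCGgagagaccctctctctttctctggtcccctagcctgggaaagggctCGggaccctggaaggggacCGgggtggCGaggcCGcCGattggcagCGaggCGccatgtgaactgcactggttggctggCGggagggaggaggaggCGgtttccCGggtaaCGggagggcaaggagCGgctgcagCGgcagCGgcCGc

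Promoters could be read from RefSeq for 7 of the 9 genes, and for CD7 and SLC37A2 there was no entry. The CG number in 250 bases was from 2 in ELF5 and 4 in HEPACAM to 34 in TMEM47, with 18 in ZNF385B, so the 7 genes covered nearly the whole range of human promoters, whose quartiles are 3 and 23. At the RefSeq start, genes that were higher in both lines had both CG-dense (TUB, DPYSL4) and CG-poor promoters (ELF5). The ELF5 stretch (34511725 to 34511974) lies inside the gene as the files list it (34478793 to 34513805). That of HEPACAM (124936048 to 124936297) also lies inside its listed gene (124919193 to 124936412). Their low CG numbers therefore do not describe the bases before the starts that the files use. Of 4 motifs searched on both strands, GGGCGG, which holds a CG itself, was found in TMEM47, TUB, DPYSL4 and ZNF385B and in 42.6% of all promoters. The TATA box TATAAA was found in none of the 7 and in 10.7% of all promoters, and the same 7 lacked the E-box CACGTG, found in 6.34%, and the AP-1 motif TGACTCA, found in 4.20%.

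Of the 9 genes, 5 lie on chromosome 11 (HEPACAM, SLC37A2, NAV2, TUB and ELF5), which holds 5.51% of the genes tested in Huh7 and 5.39% of those in HepG2. Over all genes tested on chromosome 11, the median log2 fold change was 0.18 in Huh7, against -0.04 over the whole genome, and 0.28 in HepG2, against 0.12. In HepG2, 42 genes of the chromosome were called higher and 9 lower, which is 8.04% of its 634 tested genes, against 6.27% of all genes. In Huh7, 70 were called higher and 78 lower, which is 21.4% of 692, against 22.6% of all genes. These counts include those of the 9 genes that were called, which were chosen for this difference. Among the other chromosomes that hold 1 of the 9 genes, 9.29% were called in HepG2 on 10, 6.29% on X, 6.145% on 2 and 5.69% on 17. Their median log2 fold changes in Huh7 were 0.28 on 17, -0.03 on X, -0.16 on 2 and -0.33 on 10. Apart from HEPACAM and SLC37A2, those of the 9 genes that lie on chromosome 11 are many megabases from each other.

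Around all 9 genes together, other genes within 500 kb were called less often than all genes in Huh7 and more often in HepG2, and neither difference was tested. In Huh7, 55 neighbours were tested, of which 4 were called higher and 2 lower (10.9%, against 22.6% of all genes), with a median log2 fold change of 0.12 against -0.04. In HepG2, 52 were tested, of which 8 were called higher and 0 lower (15.4%, against 6.27%), with a median of 0.35 against 0.12, and 6 of the 8 lie around CD7, with CCDC15 and E2F8 as the others. The HepG2 count was 5 without the first or the second parental sample or the third resistant sample, and 5 without a filter on low values. In Huh7, the other calls were NAT10, an RNA acetyltransferase gene 408 kb from ELF5 (log2 fold change 1.15, adjusted p = 7.84e-05), the kinase gene STK32C, the nearest gene after DPYSL4 (1.06, adjusted p = 0.000397), and the olfactory receptor pseudogenes OR8A3P and OR8A2P near HEPACAM, which were lower (-1.58 and -1.21, adjusted p = 0.000175 and 0.00211). With the GC trend removed, ALYREF, MAFG, NAT10 and STK32C were no longer called in Huh7. Next to ELF5, CAT, the catalase gene, was lower in resistant Huh7 cells by less than the threshold (-0.94, adjusted p = 0.000374) and higher in resistant HepG2 cells (0.67, adjusted p = 0.0145). The other nearest genes, EIF3F before TUB (0.49 in Huh7, adjusted p = 0.00459; 0.16 in HepG2, adjusted p = 0.592), STK33 after TUB (0.73 in HepG2, adjusted p = 0.0209), PDHX after ELF5 (-0.08 and 0.62, adjusted p = 0.594 and 0.0132), BNIP3 before DPYSL4 (-0.34 and -0.02, adjusted p = 0.0515 and 0.959) and CWC22 near ZNF385B (-0.67 and 0.32, adjusted p = 0.00506 and 0.302), were not called.

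Relatives and partners of the 9 genes were counted next. Several relatives of TMEM47 were higher in resistant Huh7 cells, in which TMEM47 itself was low: of 10 relatives tested, 5 were called higher and 1 lower in Huh7 (22.6% of all genes were called), and of 9 tested in HepG2, 1 was called higher and 1 lower (6.27% of all genes). EMP3, an epithelial membrane protein, was at 34.4 ± 5.3 FPKM in resistant and 4.23 ± 0.67 FPKM in parental Huh7 cells (SD, n = 3; log2 fold change 2.75, adjusted p = 6.36e-06). The tight junction gene CLDN4 was at 9.65 ± 1.36 against 0.709 ± 0.274 FPKM (2.64, adjusted p = 8.98e-06). CLDN6, CLDN7 and EMP2 were the other 3 called higher, with log2 fold changes of 1.11, 1.06 and 1.02, and CLDN12 was called lower (-1.02). In HepG2, where TMEM47 had at most 3 reads in a sample, CLDN4 was lower (-1.06, adjusted p = 0.0106) and PMP22, a myelin protein gene, higher (1.01, adjusted p = 0.00213). The median was 0.98 in Huh7 and -0.36 in HepG2, against -0.04 and 0.12 over all genes.

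Genes of cell junctions moved in both directions in Huh7. Of 22 tested, 5 were called higher, namely E-cadherin (CDH1, 7.79 to 24.1 FPKM from parental to resistant, log2 fold change 1.51, adjusted p = 1.92e-05), plakoglobin (JUP, 1.61), TJP3 (1.38), NECTIN2 (1.18) and cingulin (CGN, 1.02), and 3 lower, namely NECTIN3 (-1.72), plakophilin 2 (PKP2, -1.14) and PRKCI (-1.01). In HepG2, 1 of 19 was called, NECTIN3, which was higher (1.11, adjusted p = 0.00768). The medians were -0.21 in Huh7 and -0.35 in HepG2. Of all genes, 22.6% were called in Huh7 (8.59% higher and 14% lower) and 6.27% in HepG2.

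Partners and relatives of HEPACAM were few. In HepG2, 3 were tested, and KCNJ10, a glial potassium channel gene, was called higher, at 2.62 ± 0.10 against 0.736 ± 0.208 FPKM (SD, n = 3; log2 fold change 1.06, adjusted p = 0.00268), while ATP1B1, a sodium pump subunit gene, missed the threshold (0.95, adjusted p = 0.00279). In Huh7, 6 were tested, 0 were called higher and 2 lower, the water channel gene AQP4 (-1.10) and caveolin 1 (CAV1, -1.06), with adjusted p-values of 0.000111 and 7.71e-05. With the GC trend removed, the split in Huh7 turned to 1 higher and 0 lower, the gap junction gene GJA1 (1.34, from 0.73). The medians of these lists were 0.95 in HepG2 and -0.35 in Huh7, and 6.27% and 22.6% of all genes were called in these lines. The summed level of 8 neuron and glia markers was lower in resistant cells of both lines. It was 2.89 to 3.32 against 8.03 to 10.4 FPKM in Huh7 and 5.05 to 7.05 against 10.5 to 18.6 FPKM in HepG2.

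Relatives of NAV2 and TUB moved in different directions. NAV3 was not called in Huh7 (2.76 ± 0.21 against 3.07 ± 0.23 FPKM, log2 fold change -0.12, adjusted p = 0.350, n = 3) and in HepG2 it stayed under 0.1 FPKM. NAV1 was higher in resistant Huh7 cells, as NAV2 was, at 1.03 ± 0.07 against 0.294 ± 0.023 FPKM (SD, n = 3), without reaching the filter of the test, and stayed under 0.1 FPKM in HepG2. Of retinoic acid pathway genes, 1 of 12 was called in Huh7 and 1 of 8 in HepG2, in both cases DHRS3, a retinal reductase gene, which was higher in Huh7 (1.18, adjusted p = 0.00015) and lower in HepG2 (-1.12, adjusted p = 0.00582), with medians of 0.29 and -0.26. In the tubby family and ciliary trafficking list, 0 of 11 were called higher and 2 lower in Huh7, both of them genes of cilia: TTC21B (-1.61) and WDR19 (-1.20). In HepG2 0 of 10 were called by limma, with 5 at an unadjusted p-value under 0.05, 1 called by limma-voom, 1 by limma without the second resistant sample and 2 without the third parental one. The medians were -0.03 and 0.22. For comparison with the counts of both lists, 22.6% of all genes were called in Huh7 and 6.27% in HepG2. TULP3, the relative of TUB with a shared ciliary role, was higher in resistant Huh7 cells by less than the threshold (0.62, adjusted p = 0.000842) and was at -0.39 in HepG2 (adjusted p = 0.0895). TULP4, another relative, was lower in resistant cells by less than the threshold in Huh7 (-0.69, adjusted p = 0.000509) and in HepG2 (-0.65, adjusted p = 0.0116).

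Of the genes that handle glucose-6-phosphate, the substrate of SLC37A2, 2 were called in each line, which in Huh7 was near the share of all genes. In Huh7, 2 of 10 were called higher and 0 lower: GPI (1.45, adjusted p = 9.57e-05), an enzyme of glycolysis, and PGM1 (1.18), which connects the substrate with glycogen, where 22.6% of all genes were called. With the GC trend removed, the split in Huh7 turned to 0 higher and 1 lower, the glucokinase regulator GCKR (-1.21, from -0.86). In HepG2, 0 of 10 were called higher and 2 lower: HK2, the hexokinase that makes the substrate, at 38.0 ± 1.0 against 132 ± 3 FPKM (SD, n = 3; -1.77, adjusted p = 0.000173), and GCKR (-1.05, adjusted p = 0.00286), against 6.27% of all genes. GCKR is also in the study's gene list that holds SLC37A2, so its direction is no independent evidence. The medians were 0.74 in Huh7 and 0.19 in HepG2. SLC37A4, the liver transporter of the same family, was not called, at 6.60 ± 1.20 against 3.42 ± 0.48 FPKM in Huh7 (0.78, adjusted p = 0.00143) and 7.27 ± 1.23 against 5.86 ± 1.88 FPKM in HepG2 (0.29, adjusted p = 0.357).

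Among ETS factors, the family of ELF5, 5 of 17 were called higher and 1 lower in Huh7, against 8.59% and 14% of all genes. SPDEF, a factor of secretory epithelium, was at 15.1 ± 2.8 FPKM in resistant and 0.348 ± 0.060 FPKM in parental Huh7 cells (SD, n = 3; log2 fold change 3.56, adjusted p = 4.19e-06), and ELF4 (1.71), ETS2 (1.39), ELF3 (1.37) and ETV4 (1.19) were the others, with GABPA lower (-1.13). In HepG2, 0 of 16 were called higher and 2 lower, ELF3 (-1.10, adjusted p = 0.0346) and ETS2 (-1.05, adjusted p = 0.00234). ELF3 and ETS2 thus went up in Huh7 and down in HepG2, whereas ELF5 was higher in both. The medians were -0.03 and -0.13, and 6.27% of all genes were called in HepG2.

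The families of DPYSL4 and ZNF385B were small, and 22.6% of all genes were called in Huh7 and 6.27% in HepG2. DPYSL2, another collapsin response mediator, was the 1 called of 3 tested in Huh7, at 44.3 ± 1.5 against 16.6 ± 1.8 FPKM (SD, n = 3; 1.36, adjusted p = 3.17e-05), and in HepG2 it was the only one tested and was not called (0.52, adjusted p = 0.0897). ZNF385C was the only relative of ZNF385B tested, called higher in Huh7 (1.10, adjusted p = 6.48e-05) and not in HepG2 (0.29, adjusted p = 0.261).

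Calls of these relatives in Huh7 depended on GC content. Of the 35 calls among neighbours and relatives in Huh7, 24 were lost when the GC trend of each library was removed. The 11 that were kept were EMP3, CLDN4, CDH1, JUP, SPDEF, ELF4, ETS2, DPYSL2, NECTIN3, OR8A3P and OR8A2P. In the lists of relatives, GCKR and DPYSL3 (-1.07) were among the genes then called lower in Huh7 and GJA1 was called higher, and CLDN6 (-1.06) lower in HepG2. In HepG2, 4 of 17 were lost: PMP22, FASN, LRRC45 and C17orf62. The HepG2 calls of CCDC15, ALYREF, FN3K and HK2 were kept under every alternative tried, whereas the other 13 were lost under at least 1 of them, for FASN, PCYT2 and C17orf62 when either of the first 2 parental samples or either of the last 2 resistant samples was left out, and for E2F8 when the first parental sample was.

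**Figure D4:**
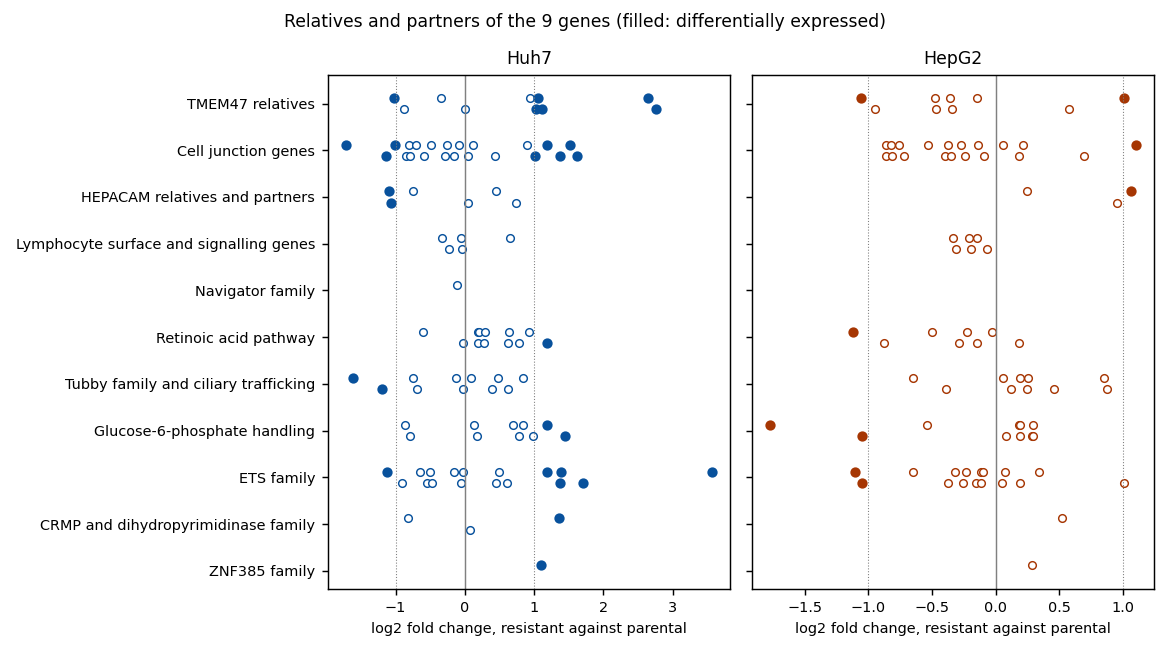
Log2 fold change between resistant and parental cells (horizontal axes) of each tested gene of the lists of relatives and partners (rows) in Huh7 (left) and HepG2 (right), with differentially expressed genes filled, the solid line at 0 and dotted lines at the threshold of 1 on either side. In Huh7, SPDEF at 3.56 is the point farthest right and EMP3 and CLDN4 follow at 2.75 and 2.64; in HepG2, HK2 at -1.77 is the point farthest left.

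The genes whose pattern over the 12 samples was most like that of each of the 9 were found among 13791 genes by the root mean square distance of log2(FPKM + 1) after centring each gene, where 0 means an identical pattern. These distances are a description over 12 samples that share 4 groups. ZNF385B had the closest match, GINS2, a DNA replication gene (0.12), and DPYSL4 followed with RBPMS2 (0.15), then ELF5 with the replication clamp gene PCNA (0.21), TUB with GPR119 (0.22) and SLC37A2 with SLC4A11 (0.23). CYP3A5, a drug-metabolising cytochrome P450 gene, was among the 3 closest to both TUB and SLC37A2, with means of 5.90 against 3.08 FPKM in Huh7 and 6.82 against 1.08 FPKM in HepG2. Among the 9 genes themselves, TUB and SLC37A2 were the closest pair (0.18), followed by DPYSL4 and ELF5 (0.21).

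For the genes with a large change in a single line, the closest matches changed most in that line too. This follows from how they were sought, by distance over the same 12 samples. HEPACAM was closest to TGFA, an EGF receptor ligand gene (0.47), which was at 25.8 against 4.05 FPKM in HepG2 and under 0.1 FPKM in Huh7. TMEM47 was closest to DACH1, a transcription cofactor gene (0.22), which was at 0.353 against 9.98 FPKM in Huh7. CD7 was closest to KRT19, a keratin gene of bile duct epithelium (0.48), at 70.4 against 7.18 FPKM in Huh7 and 13.4 against 7.18 FPKM in HepG2, followed by SPDEF. NAV2 was closest to SDC4, a syndecan gene (0.44), at 25.1 against 203 FPKM in HepG2 and 157 against 114 FPKM in Huh7. The distances of HEPACAM, CD7 and NAV2 were larger than those of the genes named before them, and so was the spread of the genes themselves over the samples.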

How the data were processed

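RNA of 12 samples was analysed. The authors deposited 1 table per sample, with 27249 genes under Ensembl and 71462 under NONCODE identifiers, made from libraries of a kit that does not mark the strand. The submitters' processing notes name bcl2fastq and GRCh38, and the aligner and quantification tool are not given in the sources used here. The unit is not stated: values of genes with 1 exon, multiplied by exon length, fall on whole multiples of 1 step per sample (within 0.05 reads for 99.85% to 99.94% of them), the pattern of FPKM or RPKM, so that the deposited values are called FPKM and were not rescaled. That step gave the reads. The labels and the paper's methods name different RNA extraction kits.

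Exon lengths, positions and GC content came from GENCODE 29 (GRCh38), and promoters from RefSeq. Tables were read with Python 3.11.15 and pandas 2.3.3. Resistant and parental cells were compared within each line with limma 3.58.1 (R 4.3.3, empirical Bayes with a trend) on log2(FPKM + 1) of genes that reached 1 FPKM in 3 or more of 6 samples, with Benjamini-Hochberg adjustment over all genes tested. The 9 genes, the lists of relatives and markers and the alternatives were chosen with earlier results of these data known. Named besides the 9 were genes within 500 kb that were called or nearest, called genes of each list, up to 4 by size of change and further ones after their values were seen, relatives, and the 3 closest patterns. The fit was tested on simulated data. P-values measure the spread between samples of unknown relation, and intervals and the floor of 3 reads cover counting error only. Samples with the same replicate number did not deviate together in every pair, so no pairing was used, although pairing is not excluded. NONCODE rows were described, not tested. Some genes of the lists are not reported here.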

Additional observations from a re-analysis of the deposited data

Results flagged for a closer look

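NAV2 was above the parental samples in all resistant Huh7 samples and below them in all resistant HepG2 samples, and the 2 log2 fold changes (0.55 and -4.03) lay -4.58 apart (HepG2 minus Huh7). The difference itself was not tested, here and for the genes that follow, and 16.3% of the genes tested in both lines went in opposite directions without overlap. Among neighbours of the 9 genes, CCDC15 (2.03), E2F8 (1.25) and CAT (1.61) were lower in resistant Huh7 and higher in resistant HepG2 cells, and MAFG (-2.03) and TEX19 (-1.02) the reverse, TEX19 without passing the filter of the test in Huh7. For CCDC15 and E2F8 the direction in Huh7 changed under an alternative. Among relatives, CLDN4 (-3.70), EMP3 (-3.23), CLDN6 (-2.06), CGN (-1.83), DHRS3 (-2.30), ELF3 (-2.48), ELF4 (-2.36), ETS2 (-2.44) and HK2 (-2.47) were higher in resistant Huh7 and lower in resistant HepG2 cells. NECTIN3 (2.82), TTC21B (2.49), PMP22 (1.89), PKP2 (1.84) and WDR19 (1.45) went the other way. Differences are of log2 fold changes, HepG2 minus Huh7.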

How the results depend on the processing

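In Huh7, 2838 genes were called (1079 higher, 1759 lower), with 2469 to 3302 when 1 sample was left out, 4187 with a pseudocount of 0.1, 4276 (1427 and 2849) by limma-voom on reads calculated back and 1437 (706 and 731) with the GC trend removed. In HepG2, 737 were called (387 and 350), with 637 to 874 when 1 sample was left out, 1101 with a pseudocount of 0.1 and 1177 (685 and 492) by limma-voom. The split of higher and lower turned to 1549 and 1356 in Huh7 with upper-quartile scaling, and in HepG2 to 265 and 456 with upper-quartile scaling, 290 and 427 with median-ratio scaling and 277 and 442 with the GC trend removed. These scalings moved the median log2 fold change of all HepG2 genes from 0.12 to 0.0045, 0.03 and 0.01, and upper-quartile scaling that of Huh7 from -0.04 to 0.09. No log2 fold change of the 9 genes that was called changed sign under any alternative, and a pseudocount of 0.1 brought ELF5, DPYSL4 and ZNF385B over the threshold in Huh7 (1.29, 1.93 and 1.24). Among neighbours, log2 fold changes that changed sign were, with the GC trend removed in Huh7, those of CCDC15 (0.33), CSNK1D (-0.38), CWC22 (0.070), PDHX (0.28) and RF00408 (0.012), with upper-quartile scaling in Huh7 those of E2F8 (0.0063) and PDHX (0.079), by limma-voom that of BNIP3 in HepG2 (0.0046), and without 1 sample those of UTS2R in Huh7 (range -0.44 to 0.026) and BNIP3 in HepG2 (range -0.25 to 0.17), each small and not called by limma. Of the 17 calls among neighbours and relatives in HepG2, 7 were lost without the first and 6 without the second parental sample. Deviations of samples with the same replicate number correlated at 0.084, 0.062 and -0.228 in Huh7 and at 0.246, 0.437 and -0.011 in HepG2. Between samples with different numbers, the correlations ran from -0.335 to 0.282 in Huh7 and from -0.423 to 0.210 in HepG2. With so few pairs, these values do not settle whether the numbers pair the samples. With the replicate number as a block, 2841 genes were called in Huh7 and 779 in HepG2, and the same 9-gene calls were made. The cause of these differences was not tested.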
